A study of Homo sapiens with 12 samples.

Results

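The genes described here are 10 solute carrier (SLC) genes of amino acid transport. They were chosen by gene symbol, as a list of amino acid transporters that includes the heavy chain SLC3A2 and its partners. The choice was made with earlier results of these data known, as was that of the further lists below. Counts set beside the shares of all genes are therefore descriptions and no test. The 10 genes are SLC7A5, SLC3A2, SLC7A11, SLC7A1, SLC1A4, SLC1A5, SLC38A1, SLC38A2, SLC6A9 and SLC43A1, 10 of the 19215 genes in the authors' deposited table. All 10 had a value in each of its 3 comparisons. With the herbal formula SKHS 8 of them were higher, where 15.8% of all genes were, SLC7A5 by 7.82-fold and SLC7A11 by 5.17-fold. With astragaloside IV 0 passed the threshold, where 0.358% of all genes did. With SDF-1α 5 were lower, where 17.5% of all genes were, and 1 to 5 of these falls passed under other processing.

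RNA was sequenced from 12 cultures of C28/I2, a human chondrocyte line immortalised with a viral T antigen, so the cultures are replicates of a single line. Each group held 3 cultures harvested at 48 h: DMSO (0.5% dimethyl sulfoxide), SDF1 (50 nM SDF-1α, the chemokine CXCL12), SDF1_AS4 (50 nM SDF-1α and 10 µM astragaloside IV, a plant saponin) and SDF1_SKHS (50 nM SDF-1α and 1% of the herbal formula SKHS). The study asked whether natural products that act as CXCR4 antagonists block signalling by the chemokine. DMSO is named for the DMSO group alone, and no solvent is named for either product. A solvent effect and the effect of the agent therefore cannot be told apart. The table holds comparisons and no value per culture, so a level in any culture, its depth and overlap between groups are not given here. In whole-culture RNA, fewer cells that express a gene and less of its RNA per cell cannot be told apart.

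The authors' deposited table gives log2 fold changes, here written as the first-named group over the second-named, and the ± values are standard errors implied by its p-values under a Wald test. An adjusted p under 0.05 counted as a change. Comparisons named as computed were derived from the deposited ones. All 3 deposited comparisons share the same 3 SDF1 cultures and are not independent. If those cultures lay low for a gene by chance, SDF1 over DMSO would read lower and both product comparisons higher. A gene was counted as precisely measured if its implied standard error did not exceed 0.3, which held for 9 of the 10 genes in each deposited comparison. The exception was SLC6A9, with implied standard errors of 0.67, 0.73 and 0.55.

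Amino acids enter cells through carriers that exchange an inside amino acid for an outside amino acid, move it with sodium or let it pass down its gradient. SLC7A5 (LAT1, for leucine and other large neutral amino acids) and SLC7A11 (xCT, which takes up cystine for glutamate) are light chains that reach the surface only when bound to the heavy chain SLC3A2 (CD98hc). SLC7A1 (CAT1) carries arginine and lysine, SLC1A4 (ASCT1) exchanges alanine, serine and cysteine, and SLC1A5 (ASCT2) exchanges glutamine. SLC38A1 (SNAT1) and SLC38A2 (SNAT2) take up small neutral amino acids with sodium, SLC6A9 (GlyT1) takes up glycine, and SLC43A1 (LAT3) carries leucine and related amino acids without sodium. Many of these genes are known targets of ATF4, the transcription factor made when amino acids run short or the endoplasmic reticulum is stressed. Cystine taken up by xCT feeds glutathione synthesis. In cartilage, amino acid supply serves the synthesis of a protein-rich matrix.

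In SDF1 over DMSO the amino acid transporters that changed, 5 of the 10, were all lower. SLC3A2 stood out, at -1.06 ± 0.09 in the authors' deposited table, a 2.08-fold fall with a 95% interval from -1.24 to -0.87 (adjusted p = 3.14e-27). The light chains that it carries fell less, SLC7A5 by 0.47 ± 0.13 (adjusted p = 0.000827) and SLC7A11 by 0.29 ± 0.11 (adjusted p = 0.0284). SLC1A5, the glutamine exchanger, fell by 0.35 ± 0.08 (adjusted p = 4.35e-05), and SLC7A1, the arginine carrier, by 0.21 ± 0.08 (adjusted p = 0.0234). The interval of SLC3A2 did not overlap that of any of these 4 genes.

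The other 5 transporter genes did not pass the threshold in SDF1 over DMSO. SLC1A4 was at -0.12 ± 0.09, SLC38A1 at 0.01 ± 0.15, SLC38A2 at 0.09 ± 0.10 and SLC43A1 at -0.20 ± 0.18 in the authors' deposited table. The 95% intervals of these 4 genes lay between -0.55 and 0.31. SLC6A9, at -0.92 ± 0.67, was too imprecise to place. In all, 5 of 10 genes were lower and 0 higher, where 17.5% of all 18162 genes tested were lower and 17.2% higher. Among 348 other SLC genes with a value, 75 were lower (21.6%) and 25 higher. The median of the 10 genes was -0.25, against -0.01 over all genes and -0.24 over the other SLC genes. Of these other SLC genes only 199 were precisely measured. Among precisely measured genes alone the medians were -0.21 for the transporters, 0.04 for all genes and -0.12 for the other SLC genes.

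Not all of these 5 falls held under other processing. With the trends over transcript length and GC content taken out, SLC3A2 (-0.94) and SLC1A5 (-0.24) passed, and SLC7A5 was at -0.19 (adjusted p = 0.278), SLC7A11 at -0.18 (adjusted p = 0.223) and SLC7A1 at -0.08 (adjusted p = 0.488). With p-values read from a t distribution with 4 degrees of freedom, SLC3A2 alone passed (adjusted p = 0.039).

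No amino acid transporter passed the threshold with astragaloside IV. In SDF1_AS4 over SDF1, 0 of 10 genes were called by the authors' DESeq2 test, where 0.358% of all 18133 genes were called, and 0 of 349 other SLC genes passed. An unadjusted p under 0.05 was reached by 4 of the 10 genes, against 16.4% of all genes. Of these 4, SLC7A11 was at -0.38 ± 0.12 (adjusted p = 0.0844), SLC38A1 at -0.33 ± 0.16 (adjusted p = 0.276), SLC7A1 at -0.22 ± 0.09 (adjusted p = 0.206) and SLC3A2 at 0.24 ± 0.10 (adjusted p = 0.192) in the authors' deposited table. The heavy chain SLC3A2 and its light chain SLC7A11 thus lay on opposite sides of 0, and neither passed the threshold. SLC7A5 was at -0.16 ± 0.13, with an interval from -0.41 to 0.10, and SLC1A5 at 0.00 ± 0.08, with an interval from -0.16 to 0.17. A change of 2-fold or more lies outside the interval of each of the 9 precisely measured genes, and inside that of SLC6A9, which runs from -1.10 to 1.77.

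**Figure D1:**
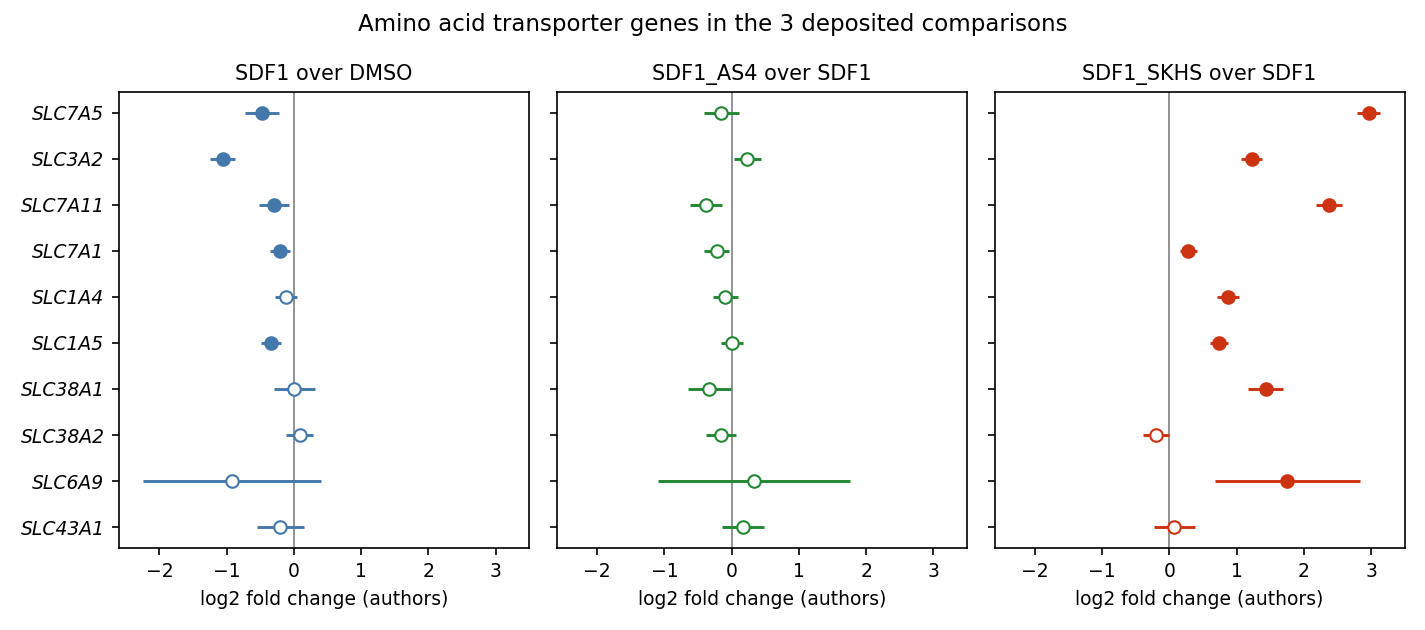
Log2 fold change (x axis) of the 10 transporter genes (rows) in the 3 deposited comparisons, with 95% intervals from the implied standard error as lines; filled points passed an adjusted p of 0.05 and open points did not. Filled points lie left of 0 for 5 genes in SDF1 over DMSO and right of 0 for 8 genes in SDF1_SKHS over SDF1, and SLC7A5 lies farthest right at 2.97.

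With the herbal formula most of the 10 listed amino acid transporters were higher. In SDF1_SKHS over SDF1, 8 of 10 genes were higher and 0 lower, where 15.8% of all 18251 genes tested were higher and 16.7% lower. Of 352 other SLC genes with a value, 44 were higher (12.5%) and 66 lower (18.8%). The median of the 10 genes was 1.05, against 0.00 over all genes and -0.03 over the other SLC genes. Of the 8 calls, 6 passed when p was read from a t distribution with 4 degrees of freedom. The other two were SLC7A1 (adjusted p = 0.0863) and SLC6A9 (adjusted p = 0.142).

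The LAT1 light chain SLC7A5 (chromosome 16, 87830023 to 87869488, GRCh38) rose by 2.97 ± 0.09 on the log2 scale in the authors' deposited table, or 7.82-fold, with an interval in fold from 6.95 to 8.80. Its adjusted p of 4.73e-251 came from the smallest p-value of the 18251 genes in this comparison, and its rise ranked number 6 among 12028 precisely measured genes. The xCT light chain SLC7A11 (chromosome 4, 138164097 to 138242349) rose by 2.37 ± 0.10 (adjusted p = 5.22e-121) and ranked number 9. Both are carriers that need the heavy chain, and both rose more than it did. SLC3A2 itself (chromosome 11, 62856102 to 62888875) rose by 1.23 ± 0.08, or 2.34-fold (adjusted p = 9.02e-51). The interval of SLC3A2, from 1.07 to 1.38, overlapped neither that of SLC7A5, from 2.80 to 3.14, nor that of SLC7A11, from 2.17 to 2.57.

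No other light chain of SLC3A2 passed the threshold upward. Of the 6 measured genes on the list of other partners of SLC3A2 and of its relative SLC3A1, 0 were higher and 1 was lower (16.7%) with SKHS. The shares of all genes were 15.8% and 16.7%. The median of the 6 was 0.08, and only 3 of them were precisely measured. SLC7A10 (0.82 ± 2.83), SLC7A9 (1.06 ± 0.72) and SLC3A1 (0.18 ± 0.54) were too imprecise to place. In the authors' deposited table SLC7A6 (y+LAT2, a carrier of basic amino acids) was at -0.02 ± 0.10, and SLC7A7 (y+LAT1) at -0.20 ± 0.18. SLC7A8, the LAT2 light chain that carries neutral amino acids as LAT1 does, fell by 0.33 ± 0.08 (adjusted p = 0.000641). The intervals of SLC7A5 and SLC7A8 thus lay on opposite sides of 0 in the same cultures.

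The arginine carrier SLC7A1 (chromosome 13, 29509410 to 29595688) rose by 0.28 ± 0.07 (1.21-fold, adjusted p = 0.000129), the smallest of the 8 rises in the authors' deposited table. Among the exchangers of the SLC1 family, SLC1A4 (chromosome 2, 64988477 to 65023865) rose by 0.87 ± 0.08 (adjusted p = 3.09e-25) and SLC1A5 (chromosome 19, 46774883 to 46788594) by 0.74 ± 0.07 (adjusted p = 4.27e-26). Their intervals, from 0.71 to 1.03 and from 0.61 to 0.88, overlapped, so their order is not resolved.

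The sodium-coupled carriers SLC38A1 and SLC38A2 parted. They lie on the same strand of chromosome 12 with 88.2 kb and 0 other protein-coding genes between them, at 46183063 to 46270017 and 46358189 to 46372867. In the authors' deposited table SLC38A1 rose by 1.43 ± 0.13 (2.70-fold, adjusted p = 4.09e-25), whereas SLC38A2 was at -0.19 ± 0.10 with an interval from -0.39 to -0.0008 (adjusted p = 0.127). SLC38A2 is the member of this pair best known for induction when amino acids are withdrawn, and it did not pass the threshold in any deposited comparison. SLC6A9, the glycine transporter (chromosome 1, 43991500 to 44031467), rose by 1.75 ± 0.55 (adjusted p = 0.00614), with an interval from 0.67 to 2.83 that overlaps those of 6 of the other rises. SLC43A1, the facilitative leucine carrier (chromosome 11, 57484534 to 57515786), was at 0.07 ± 0.15 (adjusted p = 0.82).

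Ordered by size, the precisely measured rises with SKHS ran SLC7A5, SLC7A11, SLC38A1, SLC3A2, SLC1A4, SLC1A5 and SLC7A1. Neighbours in this order had separate intervals except SLC38A1 with SLC3A2 and SLC1A4 with SLC1A5. Among the 209 precisely measured SLC genes, SLC7A5, SLC7A11, SLC38A1 and SLC3A2 held ranks 1 to 4 and SLC1A4 rank 10, in the authors' deposited table. SLC1A5 held rank 13, SLC7A1 rank 49, SLC43A1 rank 86 and SLC38A2 rank 135. Ranks 5 and 6 were held by SLC22A15 (1.197 ± 0.15) and SLC16A9 (1.18 ± 0.17), whose intervals overlapped those of SLC38A1 and SLC3A2. Ranks 7 to 9 were SLC12A7 (1.10 ± 0.22), SLC43A2 (0.96 ± 0.14) and SLC6A13 (0.95 ± 0.26). Their intervals, and those of some genes at lower ranks, also overlapped that of SLC3A2. The order from rank 3 downward is therefore not resolved.

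**Figure D2:**
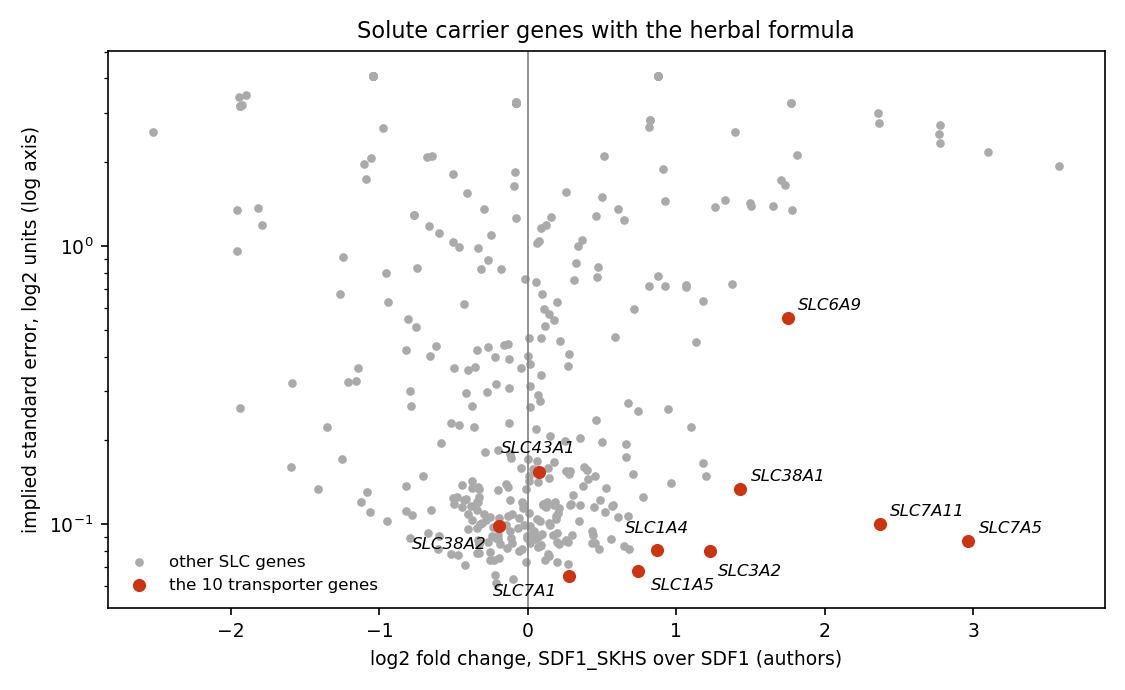
Log2 fold change in SDF1_SKHS over SDF1 (x axis) against its implied standard error in log2 units (log y axis) for the 10 transporter genes in red and 352 other SLC genes with a value in grey. SLC7A5 and SLC7A11 lie apart to the right at low error, and SLC38A2 and SLC43A1 lie among the grey points near 0.

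Since 8 of the 10 genes moved together with SKHS, their start-site windows were read for short motifs. RefSeq windows from 250 bases before to 50 bases after a start site (GRCh38.p14) were matched for 9 of the 10 genes, all but SLC7A11, with 16 windows in all. The letters TGATGNAA, the core of the C/EBP-ATF response element that ATF4 dimers bind, were searched on both strands. A match was present in 5 of 16 windows, in SLC3A2, SLC7A1, SLC1A4, SLC1A5 and SLC38A1, while 3.62% of all 35116 windows and 3.79% of 448 windows of other SLC genes held one. By gene this was 5 of 9, against 4.46% of 27305 genes. All 5 genes rose with SKHS, as did 7 of the 9 genes that had a window. The matches are shown here with up to 15 flanking bases, read 5′ to 3′ on the strand that holds the motif, which was the minus strand in each case. Capitals mark the motif.
SLC3A2, chr11:62881721-62881748: ggagcTGATGTAAggagtcctgcacatt
SLC7A1, chr13:29595659-29595696: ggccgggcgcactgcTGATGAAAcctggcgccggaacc
SLC1A4, chr2:64989377-64989414: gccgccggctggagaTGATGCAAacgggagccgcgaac
SLC1A5, chr19:46784889-46784926: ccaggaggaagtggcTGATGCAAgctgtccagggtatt
SLC38A1, chr12:46266498-46266535: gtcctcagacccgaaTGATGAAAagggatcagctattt

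The matches lay from 97 bases before to 37 bases after the start site of their window. SLC1A4 and SLC1A5 shared the variant TGATGCAA, SLC7A1 and SLC38A1 the variant TGATGAAA, and SLC3A2 had TGATGTAA. SLC3A2, SLC1A4, SLC1A5 and SLC38A1 have more than 1 window, and only 1 window of each held the motif, so the match belongs to a single annotated start. Which start these cells used was not measured in the table. A match is a string of letters in the reference and is no evidence of binding here.

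A second motif, TGACNNNGC, the core of the antioxidant response element bound by NRF2, was present in 4 of 16 windows (SLC7A5, SLC3A2, SLC7A1 and SLC1A5), against 13.3% of all windows. The E-box CACGTG, bound by MYC and other factors, was present in 3 of 16 (SLC7A5, SLC1A5 and SLC43A1), against 7.26%. No matches overlapped each other. The windows of SLC7A5, the gene with the largest rise, and of the SLC3A2 start that held both the C/EBP-ATF and the antioxidant response core are shown in full, 5′ to 3′ on the strand of the gene, with all motif matches in capitals. The SLC7A5 window is on the minus strand and the SLC3A2 window on the plus strand, and the C/EBP-ATF core of SLC3A2 reads there as TTACATCA.
SLC7A5, chr16:87869458-87869757: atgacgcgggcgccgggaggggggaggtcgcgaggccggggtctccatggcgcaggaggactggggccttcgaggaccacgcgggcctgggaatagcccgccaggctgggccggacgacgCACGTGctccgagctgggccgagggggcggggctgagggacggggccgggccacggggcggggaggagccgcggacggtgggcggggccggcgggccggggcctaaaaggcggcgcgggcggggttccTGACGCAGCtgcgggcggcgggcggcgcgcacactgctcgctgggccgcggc
SLC3A2, chr11:62881449-62881748: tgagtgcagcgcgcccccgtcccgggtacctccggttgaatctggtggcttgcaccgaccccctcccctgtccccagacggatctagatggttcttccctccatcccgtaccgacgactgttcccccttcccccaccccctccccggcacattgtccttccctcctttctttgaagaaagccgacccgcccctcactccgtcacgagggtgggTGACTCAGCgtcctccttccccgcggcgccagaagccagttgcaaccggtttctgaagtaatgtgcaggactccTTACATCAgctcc

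The SLC7A5 window has a GC content of 80.3% and its antioxidant response core spans the start site, whereas the SLC3A2 window has 62.7% with that core 37 bases before the start. SLC7A5 rose most, and the letters TGATGNAA are not in its window, and SLC38A2 and SLC6A9 held none of the 3 motifs.

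**Figure D3:**
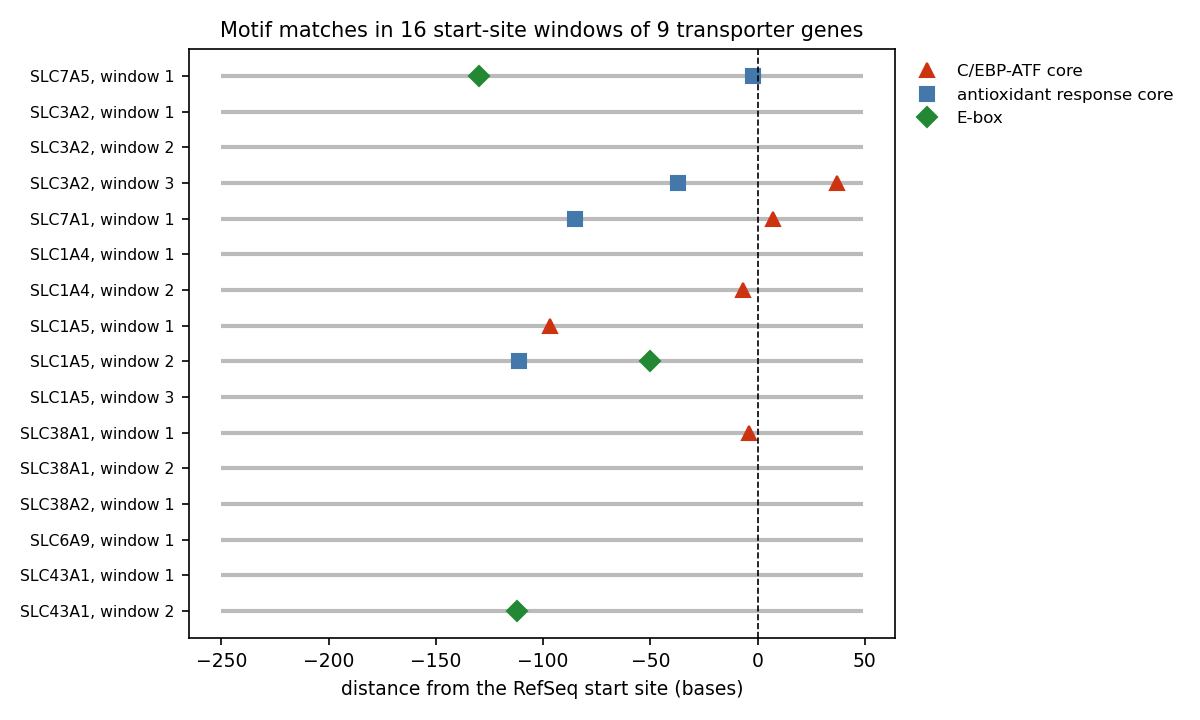
Positions of the 3 motifs in 16 start-site windows of 9 transporter genes (rows); the x axis is the distance in bases from the RefSeq start site, marked by the dashed line, and each symbol is the first base of a match. Triangles for the C/EBP-ATF core appear in 5 windows, from -97 to 37, and the windows of SLC38A2 and SLC6A9 hold no symbol.

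Set directly against each other, the herbal formula and astragaloside IV differed in 7 of the 10 transporters. The computed comparison SDF1_SKHS over SDF1_AS4 took the difference of the deposited values with an upper bound for its standard error. In it, 7 genes were higher and 0 lower, where 8.5% of 17927 genes were higher and 10.4% lower. SLC7A5 was higher by 3.12 ± 0.16 (interval 2.81 to 3.43), SLC7A11 by 2.75 ± 0.16, SLC38A1 by 1.77 ± 0.21 and SLC3A2 by 0.99 ± 0.13. SLC1A4 (0.96 ± 0.12), SLC1A5 (0.74 ± 0.11) and SLC7A1 (0.50 ± 0.12) were also higher. The highest adjusted p of the 7 was 0.000212. For SLC38A2 (-0.04 ± 0.15, interval -0.33 to 0.26) and SLC43A1 (-0.10 ± 0.22, interval -0.53 to 0.34) no difference was resolved, nor for SLC6A9 (1.42 ± 0.91). Read from a t distribution with 4 degrees of freedom, 0 of the 7 passed, nor did any other gene. The lowest adjusted p of the 7 was then 0.0882, for SLC7A5 and SLC7A11.

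SLC7A5, SLC7A11 and SLC1A5 were above DMSO with SKHS and below it with astragaloside IV in the computed comparisons. The values below DMSO contain the falls of SDF1 over DMSO. None of these genes passed the threshold in SDF1_AS4 over SDF1. In the computed comparison SDF1_SKHS over DMSO, 5 genes were higher and 0 lower, against 18.1% and 19.1% of 17936 genes. They were SLC7A5 (2.49 ± 0.15), SLC7A11 (2.08 ± 0.15), SLC38A1 (1.44 ± 0.20), SLC1A4 (0.75 ± 0.12) and SLC1A5 (0.40 ± 0.10). SLC3A2, which was 2.08-fold lower in SDF1 cultures, was at 0.17 ± 0.12 with an interval from -0.07 to 0.41, so no difference from DMSO was resolved for the heavy chain while the LAT1 and xCT light chains stood far above their DMSO level. SLC7A1 was at 0.07 ± 0.10. Read from a t distribution with 4 degrees of freedom, 4 of the 5 rises passed, and SLC1A5 did not (adjusted p = 0.0831).

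In the computed comparison SDF1_AS4 over DMSO, 5 genes were lower and 0 higher, where 11.6% of 17895 genes were lower. They were the 5 genes that were lower in SDF1 over DMSO, and the computed values contain those falls. SLC3A2 was at -0.82 ± 0.14, SLC7A11 at -0.67 ± 0.16, SLC7A5 at -0.63 ± 0.18, SLC7A1 at -0.43 ± 0.12 and SLC1A5 at -0.34 ± 0.11. Read from a t distribution with 4 degrees of freedom, 0 of these 5 passed.

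**Figure D4:**
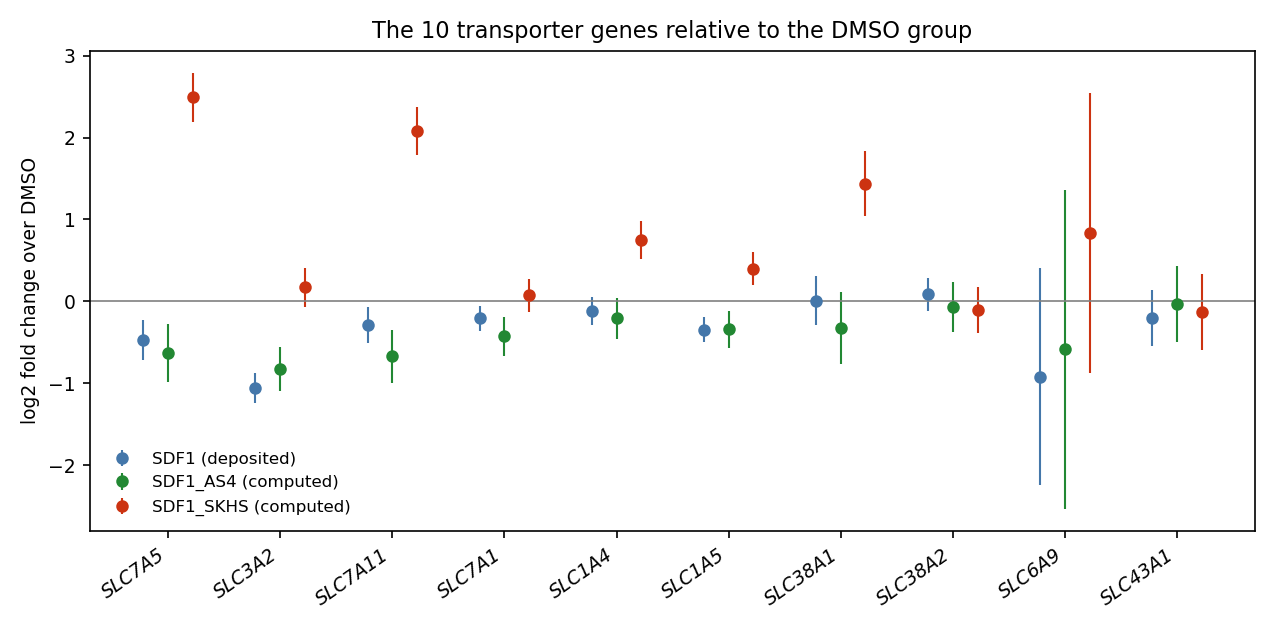
Log2 fold change over DMSO (y axis) for the 10 transporter genes, deposited for SDF1 and computed for SDF1_AS4 and SDF1_SKHS; bars are 95% intervals, from an upper bound of the standard error for the computed groups. The SDF1_SKHS points of SLC7A5, SLC7A11 and SLC38A1 lie at 2.49, 2.08 and 1.44, and that of SLC3A2 at 0.17 has an interval that includes 0.

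The other amino acid transporters were called with SKHS at shares near those of all genes. The list held 39 further carriers, most of them of the same gene families, and some of the 39 carry other substrates. Of the 34 with a value with SKHS, 4 were higher (11.8%) and 8 lower (23.5%), against 15.8% and 16.7% of all genes, with a median of -0.18. In the authors' deposited table the rises were those of SLC43A2 (LAT4, a leucine carrier of the SLC43A1 family, 0.96 ± 0.14), SLC6A13 (a GABA and taurine carrier, 0.95 ± 0.26), SLC38A6 (0.52 ± 0.11) and SLC6A8 (the creatine transporter, 0.20 ± 0.07). Among the precisely measured falls were those of SLC36A4 (a proton-linked carrier, -0.82 ± 0.14), SLC43A3 (a nucleobase carrier, -0.80 ± 0.09), SLC1A1 (a glutamate carrier, -0.71 ± 0.15) and SLC6A17 (-0.50 ± 0.12). Within the SLC43 family the values of the authors' deposited table thus ranged from -0.80 for SLC43A3 to 0.96 for SLC43A2, with SLC43A1 between them. With SDF-1α over DMSO, 1 of 33 carriers was higher (3.03%) and 8 were lower (24.2%), against 17.2% and 17.5% of all genes. Their median was -0.41, and the falls included those of the glutamate carrier SLC1A3 (-1.30 ± 0.11) and SLC6A13 (-1.09 ± 0.28). In SDF1_AS4 over SDF1, 0 of 33 were called.

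Genes of the amino acid response rose with the transporters under SKHS. The list of 30 such genes outside transport was chosen with earlier results of these data known. Of these genes, 27 were higher (90.0%) and 1 lower (3.33%), against 15.8% and 16.7% of all genes. Their median was 1.35, against 0.00 over all genes. In the authors' deposited table GDF15, a secreted stress hormone, was at 3.97 ± 0.15, the pseudokinase TRIB3 at 2.99 ± 0.10, CHAC1, which degrades glutathione, at 2.98 ± 0.10, and the asparagine synthetase ASNS at 2.49 ± 0.08. ATF4 mRNA itself rose by 0.97 ± 0.07 (adjusted p = 7.13e-37). The kinase EIF2AK3 (PERK), which acts upstream of ATF4, fell by 1.00 ± 0.15. In SDF1 over DMSO the same list had 5 higher (16.7%) and 4 lower (13.3%), near the 17.2% and 17.5% of all genes. The rises were led by ATF3 (1.43 ± 0.29) and the falls by DDIT3 (CHOP, -0.90 ± 0.14). The median of the list was 0.07 there, against -0.25 for the 10 transporters. With astragaloside IV 0 of 29 were called. The part of ATF4 in the rise of the transporters was not tested.

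Genes of cystine and glutathione use stood beside SLC7A11. Of 14 genes, 11 were higher (78.6%) and 1 lower (7.14%) with SKHS, against 15.8% and 16.7% of all genes. Their median was 0.52. In the authors' deposited table the cysteine-making enzymes CBS and CTH rose by 1.47 ± 0.08 and 1.00 ± 0.08, and GCLC, the catalytic subunit of the rate-limiting step of glutathione synthesis, by 1.02 ± 0.11. CHAC1 is in this list too. GSS, which completes glutathione, fell by 0.22 ± 0.09 (adjusted p = 0.0395). Of the 14, 5 were higher (35.7%) and 2 lower (14.3%) in SDF1 over DMSO, against 17.2% and 17.5% of all genes. There CTH was at 1.29 ± 0.12 and GPX4, the lipid peroxide reductase, at 0.65 ± 0.10. The 2 falls were those of GGT1 (-0.64 ± 0.14) and CBS (-0.45 ± 0.10). SLC7A11 was lower there too, but its call was lost with the t distribution, with trends removed and at a threshold of 0.01. With astragaloside IV 0 of 14 were called.

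**Figure D5:**
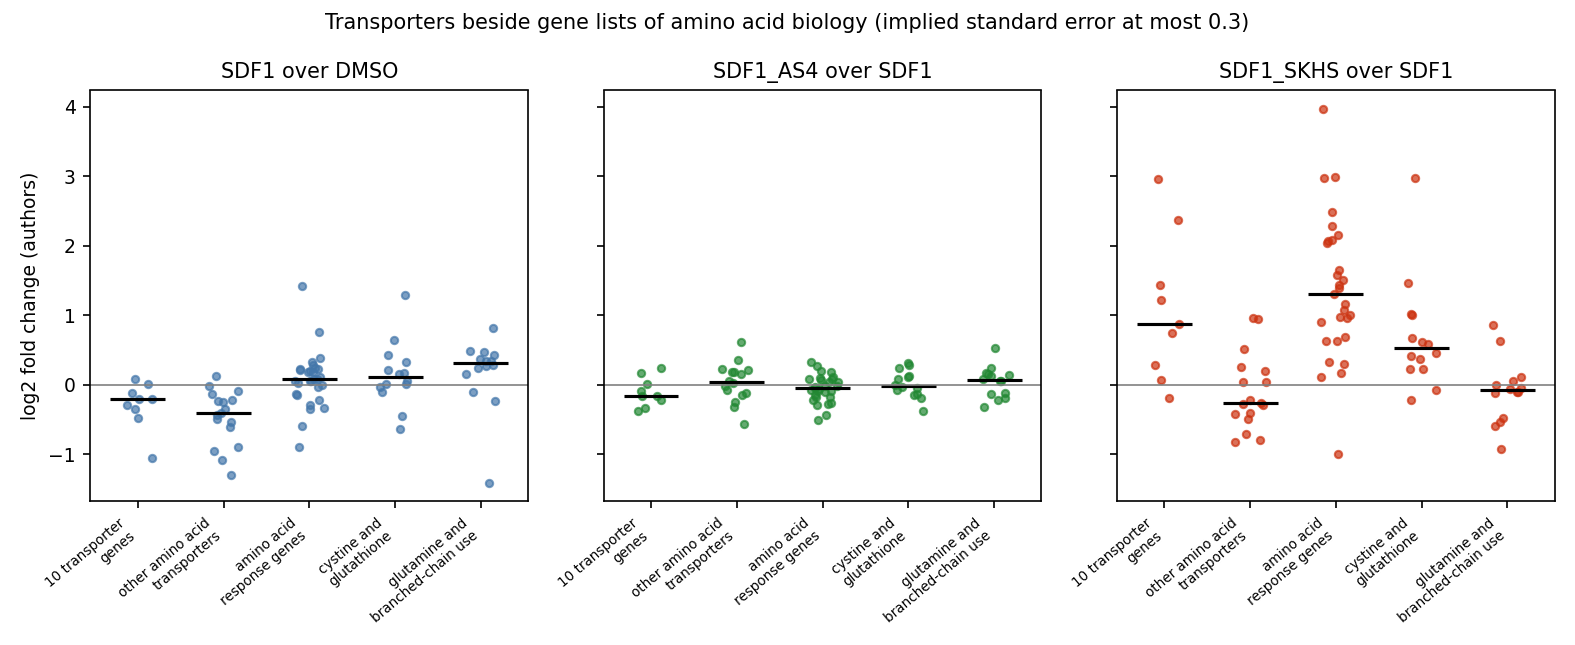
Log2 fold changes (y axis) of precisely measured genes in 5 groups, each point a gene and each bar the group median, in the 3 deposited comparisons. With SKHS the medians of the 10 transporter genes and of the amino acid response genes lie above 0, at 0.87 and 1.30 for precisely measured genes, and those of other amino acid transporters lie below it at -0.26.

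The genes most like each transporter across the 3 deposited log2 fold changes were found by Euclidean distance among 8519 genes whose implied standard error did not exceed 0.15 in all 3, a description of 3 comparisons only. For SLC7A11 they were ASNS (distance 0.34), PSAT1 (0.46) and DDIT4 (0.59), and for SLC7A5 ASNS (0.58), SLC7A11 (0.66) and TRIB3 (0.68). For SLC1A4 they were CARS1 (0.07), ARHGEF2 (0.07) and AARS1 (0.07), of which CARS1 and AARS1 encode tRNA synthetases. For SLC38A1 they were MTHFD2 (0.19), SNAPC1 (0.21) and CEBPG (0.23). The pattern of SLC3A2, down with SDF-1α and up with SKHS, had NPIPA5 (0.21), ABCC3 (0.28) and ZNF548 (0.38) nearest. NPIPA5 belongs to a family of near-identical copies, so its value is uncertain. The implied standard error of SLC38A1 itself exceeded 0.15. The nearest genes of SLC1A5 (SPHK1, 0.07), SLC7A1 (ZNF281, 0.04) and SLC38A2 (BACE1, 0.04) were not among the lists. SLC6A9 and SLC43A1, also above that limit, are given no nearest gene.

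Reads of some of these genes can be shared. SLC7A5 has the partial copies SLC7A5P1 and SLC7A5P2 on chromosome 16. SLC7A11 overlaps SLC7A11-AS1 on the opposite strand, and SLC6A9 overlaps CCDC24. Strand use in the counting is not given in the sources used here, so reads from such pairs cannot be told apart. Markers of the labelled cell type were partly measurable: of 10 chondrocyte markers, SOX9, ACAN and COL11A1 were precisely measured in the 3 deposited comparisons, and COL2A1, the cartilage collagen, was not (implied standard error 1.78 to 2.68). In the authors' deposited table ACAN fell by 0.88 ± 0.15 and COL11A1 fell by 0.68 ± 0.25 in SDF1 over DMSO, beside the falls of the transporters, and SOX9 was at -0.04 ± 0.10. With SKHS SOX9 fell by 0.40 ± 0.10 and ACAN by 0.41 ± 0.15, and COL11A1 was at -0.58 ± 0.29 (adjusted p = 0.115). Of 10 markers of other cells, 0 were called with SKHS or with astragaloside IV, and the macrophage marker CD68 was at -0.08 ± 0.08 with SKHS. MYH3 (-1.33 ± 0.36) was lower in SDF1 over DMSO. The part of such differences in the transporter values was not tested.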

How the data were processed

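Total RNA of 12 cultures was sequenced, and the authors deposited a single table of 3 comparisons for 19215 gene symbols. The submitters' processing notes list Bowtie2 2.2.5, RSEM 1.2.12, DESeq2 1.4.5 and GRCh38.p13, without roles or filters. The deposited log2 fold changes, p-values and q-values are the authors', from DESeq2 per the file headers. Groups were matched to the headers through sample titles. The direction was checked on 1576 values of genes absent from another comparison, of which 1576 were on the needed side. The q-value equals a Benjamini-Hochberg adjustment of the p-value over all genes with a value (largest difference 1.29e-14) and is called adjusted p. Depth is unknown, and p-values measure only the spread between cultures of a single line.

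The implied standard error is the absolute log2 fold change divided by the normal deviate that gives the same p-value. Computed comparisons are sums or differences of deposited values, with both variances added as an upper bound and Benjamini-Hochberg adjustment over all genes. Coordinates, transcript length and GC content come from GENCODE 29 on GRCh38, found for 18408 symbols (95.8%) and all 10 transporters. Start-site windows come from RefSeq (GRCh38.p14). SLC genes were taken by symbol, as all that start with SLC and a digit, so a few that are not carriers, such as SLC9A3R1, are among them. The genes and lists were chosen with earlier results of these data known. Genes outside the 10 were named as the up to 4 largest precise calls in each direction per list and comparison, and other named genes were chosen after their values were seen. Some genes of the lists are not reported here. The calculations were tested on simulated data and used Python 3.11.15, numpy 2.4.6, scipy 1.17.1 and pandas 2.3.3.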

Additional observations from a re-analysis of the deposited data

How the results depend on the processing

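Of the 5 transporters lower in SDF1 over DMSO, 1 was lower with p read from a t distribution with 4 degrees of freedom, 2 with length and GC trends removed and 3 at an adjusted p threshold of 0.01. The rise of 8 with SKHS became 6 with the t distribution and was 8 with centring, with trends removed and at 0.01, and 7 when genes above an implied standard error of 0.5 were left out, which leaves SLC6A9 out. With the t distribution 0 transporters were higher in SDF1_SKHS over SDF1_AS4 (7 as reported), 0 were lower in SDF1_AS4 over DMSO (5 as reported) and 4 were higher in SDF1_SKHS over DMSO (5 as reported). At 0.01, SLC1A5 lost its call in SDF1_AS4 over DMSO, which left 4. Heavier tails raise every p-value by construction. With 50% of the summed variance, the equal-spread case, the counts of the 3 computed comparisons were as reported. No called transporter changed direction under any alternative run.

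Over all genes the t distribution gave 1092 calls in SDF1 over DMSO (6301 as reported), 0 in SDF1_AS4 over SDF1 (65) and 1350 in SDF1_SKHS over SDF1 (5918), and 0, 0 and 2407 in the computed comparisons SDF1_SKHS over SDF1_AS4 (3389), SDF1_AS4 over DMSO (4014) and SDF1_SKHS over DMSO (6678). SDF1_AS4 over SDF1 had 190 calls without genes above an implied standard error of 0.5, 30 with trends removed and 7 at 0.01. Of its 65 calls 36 were higher, against 52 of 78 after centring. The computed comparisons had 5708, 6430 and 8749 calls with 50% of the summed variance.

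No paired analysis was possible because the table holds no value per culture. For the same reason no replicate was left out.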

Other observations

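Surface proteins that bind the SLC3A2 heavy chain or share its complexes were mostly lower with SKHS, where SLC3A2 rose. Of 8 genes, 5 were lower and 1 higher, where 16.7% of all genes were lower and 15.8% higher, with a median of -0.29 against 0.00 over all genes. According to the authors' deposited table, the hyaluronan receptor CD44 fell by 0.47 ± 0.07 and the integrin chains ITGA3 and ITGB1 by 0.43 ± 0.07 and 0.42 ± 0.09, whereas LGALS3, the glycan-binding galectin 3, rose by 0.99 ± 0.09. Of these 8 genes in SDF1 over DMSO, 5 were lower and 1 higher (17.5% and 17.2% of all genes), with ITGA5 at -0.51 ± 0.09. In SDF1_AS4 over SDF1, 0 of 8 passed.

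Enzymes that use the amino acids carried by these transporters were called with SKHS at shares near those of all genes. Of 16 measured genes, 2 were higher (12.5%) and 4 lower (25.0%), against 15.8% and 16.7% of all genes. From the authors' deposited table, BCAT1, the cytosolic branched-chain aminotransferase, rose by 0.86 ± 0.10 and ODC1, which makes polyamines from ornithine, by 0.63 ± 0.07. The subunits BCKDHA and BCKDHB of branched-chain keto acid oxidation fell by 0.48 ± 0.11 and 0.60 ± 0.16, arginase ARG2 by 0.53 ± 0.15 and the serine and glycine enzyme SHMT1 by 0.92 ± 0.10. With SDF-1α over DMSO, 9 of 17 were higher and 2 lower (17.2% and 17.5% of all genes), among them glutamine synthetase GLUL at 0.48 ± 0.08 and AMT, of glycine cleavage, at -1.41 ± 0.19. In SDF1_AS4 over SDF1, 0 of 17 were called.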
